A study of Mus musculus with 8 samples.

Results

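The 10 genes described here encode the enzymes that write and remove DNA methylation, the isocitrate dehydrogenases that supply a cosubstrate for its removal, and a pair of regulators of histone marks that are mutated in myeloid leukemia. They are *Dnmt1*, *Dnmt3a*, *Dnmt3b*, *Tet1*, *Tet2*, *Tet3*, *Idh1*, *Idh2*, *Asxl1* and *Ezh2*, chosen by gene symbol from a table of 54532 genes, and all 10 had enough reads to be tested. RNA-Seq was performed on sorted LSK cells, a bone marrow gate (Lin-, Sca-1+, c-Kit+) that holds hematopoietic stem and progenitor cells (HSPCs). The 4 EpCAM+ and 4 EpCAM- libraries all came from C57BL/6 mice of 8 to 12 weeks whose floxed *Zeb1* alleles were targeted for deletion by *Mx1-Cre*, a Cre driven by an interferon-inducible promoter and switched on with pIpC, and the cells were taken 14 days after the last dose. Both fractions are labelled *Zeb1*-/- and had the same treatment, so no library of a control mouse enters the comparison, which asks how these genes differ between *Zeb1*-/- cells with and without the adhesion protein EpCAM on their surface.

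DNA methylation at CpG sites is copied to the new strand at replication by DNMT1 and set up on unmethylated DNA by DNMT3A and DNMT3B. TET1, TET2 and TET3 oxidize 5-methylcytosine, using 2-oxoglutarate, which IDH1 makes in the cytosol and IDH2 in mitochondria. EZH2 is the catalytic subunit of Polycomb repressive complex 2 (PRC2), which methylates lysine 27 of histone H3, and ASXL1 is a cofactor of the BAP1 enzyme that removes ubiquitin from histone H2A. In blood, mutations of *DNMT3A*, *TET2* and *ASXL1* are common in clonal hematopoiesis, and those of *IDH1*, *IDH2* and *EZH2* in myeloid malignancy.

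Each EpCAM+ library had 15225714 to 17073546 reads assigned to genes and each EpCAM- library 14114491 to 15929923. The sorting marker *Epcam* had 2818 to 3580 counts in EpCAM+ and 17 to 144 in EpCAM- libraries. The targeted gene *Zeb1* had 363, 261, 373 and 290 counts in EpCAM+ replicates 1 to 4 and 214, 189, 157 and 129 in EpCAM- replicates 1 to 4. It was therefore higher in EpCAM+ libraries, without overlap (log2 fold change 0.72, SE 0.17, edgeR adjusted p = 0.00798). Counts over the whole gene do not separate transcripts of a deleted from an intact allele, so they do not check the deletion in either fraction. The fractions also differed in what other cell types and stages they expressed. Of 10 genes that mark LSK cells, 9 were higher in EpCAM+ libraries, and their summed level was 2460 to 2840 CPM (normalised reads per 1000000) against 1190 to 1820 CPM. Of 7 erythroid genes, 6 were lower (89.8 to 271 CPM in sum, against 2020 to 6890 CPM). *Elane* and *Mpo* were lower among 7 tested neutrophil genes (800 to 1360 CPM in sum, against 9990 to 15800 CPM), and the other 5 were not called. The mean of *Mpo* alone was 781 CPM in EpCAM+ and 10435 CPM in EpCAM- libraries. Of 6 mast cell and basophil genes 3 were lower, as were 2 of 5 monocyte and macrophage genes. Conventional dendritic cell genes had 399 to 4730 CPM in sum against 103 to 160 CPM, with 5 of 6 tested genes higher, and plasma cell genes 385 to 3960 CPM against 169 to 256 CPM, with 2 of 4 higher. Single genes weighed heavily in both sums. *H2-Ab1* had means of 2622 CPM in EpCAM+ and 114 CPM in EpCAM- libraries, and *Jchain* 1093 and 0.131 CPM. *Xcr1* had 81.3 and 0.403 CPM, while *Zbtb46* (8.54 and 10.4 CPM) and *Xbp1* (238 and 225 CPM) were not called. EpCAM+ replicates 1 and 4 had the highest dendritic cell sums and replicate 1 the highest plasma cell sum. Of the B cell list 2 of 3 tested genes were higher while *Pax5* had 0 counts in every library, and of the T cell list 2 of 2 (*Cd4* and *Lck*) were higher while *Cd3e* reached 1 count at most. One of 4 plasmacytoid dendritic cell genes and 1 of 5 platelet genes were higher, and no natural killer cell gene had enough reads for a test. In pooled cells a smaller number of cells of one type and less RNA per cell cannot be told apart, and the part of these differences in the values below was not tested.

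Of the 10 genes, *Tet1* and *Dnmt3b* were higher and *Idh1* and *Ezh2* lower in *Zeb1*-/- EpCAM+ HSPCs (two-sided quasi-likelihood test of edgeR, p-values adjusted by Benjamini-Hochberg over 13560 tested genes, threshold 0.05). The 4 calls are 40.0% of the genes, close to the 42.6% of all tested genes that were called. The 2 higher genes stand beside a background of 21.8% and the 2 lower genes beside 20.8%. The median log2 fold change was -0.02 for the 10 genes and 0.02 for all tested genes. The changes ran from a fall in *Idh1* that only 2.43% of tested genes matched or exceeded to a rise in *Tet1* at percentile 85.7 of all log2 fold changes. For 5 of the 10 genes no EpCAM+ value lay within the EpCAM- range, which held for 40.1% of all tested genes. Of these 5, 2 were higher (20.1% of all tested genes) and 3 lower (20.0%). This test took the libraries as unpaired. The replicate numbers may pair them, although no source used here says whether libraries with one number share a mouse. With the number as a block *Dnmt3a* joined the higher and *Idh2* the lower genes, which gave 6 calls where 50.3% of all tested genes passed. Upper-quartile scaling called 4 of the 10 genes (42.2% of all tested genes) and DESeq2 5 (44.8%).

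**Figure D1:**
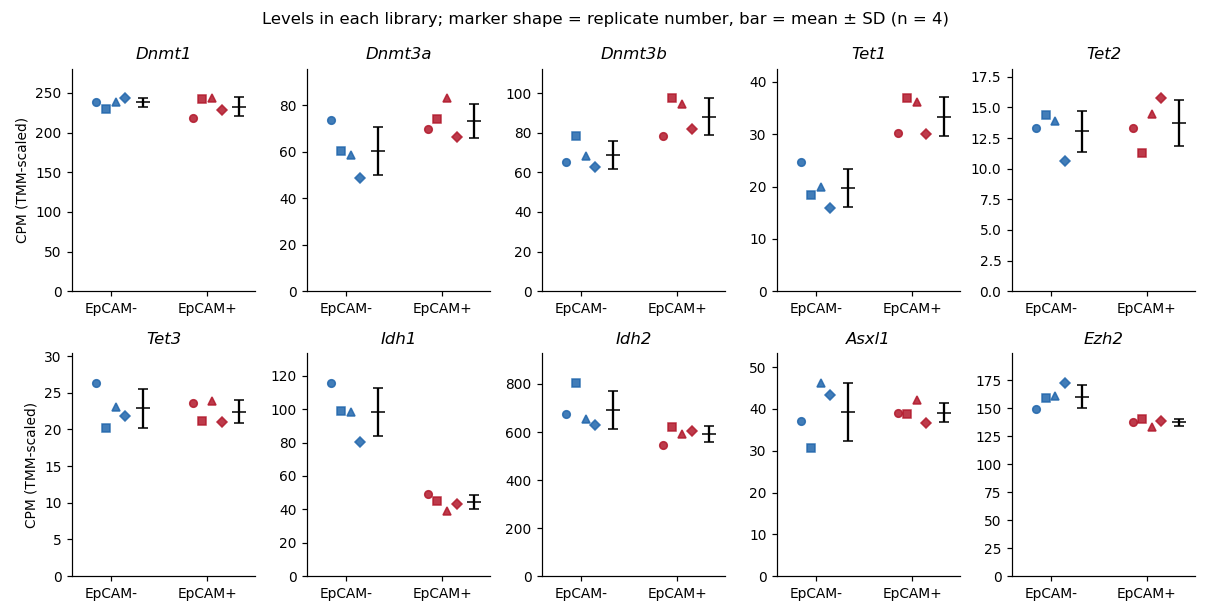
CPM (reads per 1000000 of the TMM-scaled library size, linear axis from 0) of the 10 genes in each EpCAM- (blue) and EpCAM+ (red) library. Marker shapes give the replicate number (circle 1, square 2, triangle 3, diamond 4), and black bars the mean ± SD of 4 libraries. *Idh1* lies between 39.1 and 49.1 CPM in EpCAM+ and between 80.3 and 116 CPM in EpCAM- libraries, while the points of *Dnmt1*, *Tet2*, *Tet3* and *Asxl1* overlap.

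The 4 genes that passed the threshold are shown with DNA upstream of their RefSeq start sites (GRCm38.p6), since CpG sites are the substrate of the enzymes described here. Each stretch is the longest part of the 250 bases before the start site that lies in no annotated exon, written 5′ to 3′ on the strand of the gene, with CpG sites in capitals.
Idh1: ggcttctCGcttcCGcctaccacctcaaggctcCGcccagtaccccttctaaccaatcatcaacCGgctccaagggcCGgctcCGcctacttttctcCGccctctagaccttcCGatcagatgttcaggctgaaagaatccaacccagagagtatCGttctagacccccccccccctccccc
Tet1: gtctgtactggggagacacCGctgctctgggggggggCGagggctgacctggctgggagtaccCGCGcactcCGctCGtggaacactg
Dnmt3b: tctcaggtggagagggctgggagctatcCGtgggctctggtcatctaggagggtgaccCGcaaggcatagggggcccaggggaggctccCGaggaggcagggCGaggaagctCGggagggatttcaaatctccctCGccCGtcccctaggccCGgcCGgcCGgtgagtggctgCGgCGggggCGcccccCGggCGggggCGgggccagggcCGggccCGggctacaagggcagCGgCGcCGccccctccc
Ezh2: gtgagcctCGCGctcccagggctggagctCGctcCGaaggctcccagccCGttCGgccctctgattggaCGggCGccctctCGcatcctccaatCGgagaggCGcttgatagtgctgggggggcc
The stretch of *Idh1* (chr1:65186501-65186682, minus strand) holds 9 CpG sites in 182 bases and ends 22 bases before the start site. That of *Tet1* (chr10:62887325-62887412, minus strand) holds 6 in 88 bases, and its start site lies 21672 bases inside the gene as the deposited table bounds it. The stretch of *Dnmt3b* (chr2:153649199-153649448, plus strand) holds 21 in 250 bases, and that of *Ezh2* (chr6:47595059-47595183, minus strand) 11 in 125 bases. Over the whole windows of 250 bases, the 10 genes had between 2 (*Dnmt1*) and 51 (*Tet2*) CpG sites, and 7 of them had more than the upper quartile of 16 over 32851 RefSeq start sites (median 6). The window was taken at the RefSeq start nearest to the 5′ end of the gene in the deposited table, and the other starts of *Dnmt1* had 7 and 26 CpG sites. The E-box CACCTG, the core of the ZEB1 recognition site, was searched on both strands and found in the window of *Dnmt3b*, where it reads CAGGTG from base 4 of the printed stretch, and in none of the windows of the other 9 genes. Of all windows, 17.2% hold it. The E2F motif TTTCGCGC (both strands, in 0.256% of all windows) was present at the *Dnmt1* start with 26 CpG sites, and TTTGGCGC (0.417% of all windows) at none of the 15 starts of the 10 genes.

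*Dnmt3b* (ENSMUSG00000027478, chromosome 2, 153649450 to 153687730) and *Dnmt3a* (ENSMUSG00000020661, chromosome 12), the de novo methyltransferases, both had higher means in EpCAM+ libraries, and *Dnmt1*, the maintenance enzyme, had nearly equal levels. *Dnmt3b* had 78.5, 97.7, 94.3 and 82.1 CPM in EpCAM+ replicates 1 to 4 and 65.4, 78.4, 68.3 and 62.7 CPM in EpCAM- replicates 1 to 4. Each EpCAM+ value lay above each EpCAM- value, although EpCAM+ replicate 1 and EpCAM- replicate 2 nearly met. The change was 0.36 on the log2 scale (SE 0.10, edgeR adjusted p = 0.0135), a rise of 28.3%, and the gene passed the threshold in all 8 fits without 1 library. *Dnmt3a* had 69.6, 74.0, 83.2 and 66.3 CPM in EpCAM+ and 73.5, 60.3, 58.5 and 48.6 CPM in EpCAM- replicates 1 to 4. EpCAM- replicate 1 lay among the EpCAM+ values, and in the other 3 numbered pairs the EpCAM+ library was higher. The log2 fold change of 0.28 (SE 0.12) did not pass (edgeR adjusted p = 0.0848), but it did with the replicate number as a block (0.29, SE 0.10, edgeR adjusted p = 0.0374), with upper-quartile scaling (edgeR adjusted p = 0.0401) and without EpCAM- replicate 1 (edgeR adjusted p = 0.0165). *Dnmt1* (ENSMUSG00000004099, chromosome 9) was the steadiest of the 3, with 218, 242, 243 and 228 CPM in EpCAM+ and 239, 230, 239 and 244 CPM in EpCAM- replicates 1 to 4. Its change was -0.03 on the log2 scale (SE 0.06, edgeR adjusted p = 0.716), and it took the other sign with upper-quartile scaling (0.06).

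*Dnmt3c*, a rodent copy of *Dnmt3b* that methylates young retrotransposons in male germ cells, starts 8922 bases after the end of *Dnmt3b* and was named after its values were seen. It had 29, 15, 18 and 27 counts in EpCAM- replicates 1 to 4 and 0, 0, 2 and 3 in EpCAM+ replicates 1 to 4. Against a floor of 3 counts per library it was at least 7.82-fold lower in EpCAM+ libraries (edgeR adjusted p = 0.000735), the opposite direction to *Dnmt3b*. How reads that fit both copies were counted is not given in the sources used here, so the level of *Dnmt3c* is uncertain. *Dnmt3l*, which encodes a catalytically inactive cofactor, had 0 to 3 counts in EpCAM+ and 0 to 10 in EpCAM- libraries and was not tested. The antisense gene *Dnmt3bos* reached at most 1.91% of the counts of *Dnmt3b*.

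Of the TET dioxygenases, *Tet1* rose and *Tet2* and *Tet3* did not pass the test. *Tet1* (ENSMUSG00000047146, chromosome 10) had 463, 653, 648 and 462 counts in EpCAM+ and 395, 247, 293 and 218 in EpCAM- replicates 1 to 4, which gave 30.3, 37.0, 36.2 and 30.0 CPM against 24.7, 18.3, 20.0 and 16.0 CPM. The fractions did not overlap, and EpCAM- replicate 1 was the nearest to the EpCAM+ values. The change was 0.76 on the log2 scale (SE 0.14, edgeR adjusted p = 0.00205), a 1.69-fold increase that stayed between 0.66 and 0.88 on the log2 scale without each library in turn. *Tet2* (ENSMUSG00000040943, chromosome 3) was the least abundant, with 13.3, 11.3, 14.5 and 15.8 CPM in EpCAM+ and 13.3, 14.4, 13.9 and 10.6 CPM in EpCAM- replicates 1 to 4. These values overlapped over nearly their whole range, and 2 of the 4 numbered pairs were higher and 2 lower in EpCAM+ (log2 fold change 0.07, SE 0.14, edgeR adjusted p = 0.712). *Tet3* (ENSMUSG00000034832, chromosome 6) had 23.6, 21.2, 23.9 and 21.0 CPM in EpCAM+ and 26.4, 20.2, 23.1 and 21.8 CPM in EpCAM- replicates 1 to 4, again with full overlap (log2 fold change -0.03, SE 0.11, edgeR adjusted p = 0.832). With upper-quartile scaling *Tet3* took the other sign (0.05). The summed CPM of the 3 genes was 66.8 to 74.6 in EpCAM+ and 48.5 to 64.4 in EpCAM- libraries.

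*Idh1* changed most of the 10 genes and fell by 55.1% in EpCAM+ HSPCs. *Idh1* (ENSMUSG00000025950, chromosome 1, 65158616 to 65186500), the cytosolic NADP-dependent enzyme, had 751, 797, 699 and 667 counts in EpCAM+ and 1856, 1337, 1438 and 1092 in EpCAM- replicates 1 to 4, or 49.1, 45.2, 39.1 and 43.3 CPM against 116, 98.9, 98.1 and 80.3 CPM. The highest EpCAM+ library stayed well below the lowest EpCAM- library. The level was 2.23-fold lower in EpCAM+ HSPCs (log2 fold change -1.16, SE 0.11, edgeR adjusted p = 0.000175). It was the only one of the 10 genes that passed a test against a change of 1.5-fold (edgeR's glmTreat, adjusted p = 0.0022), which 8.89% of all tested genes passed. *Idh2* (ENSMUSG00000030541, chromosome 7), the mitochondrial enzyme, had 547, 621, 592 and 605 CPM in EpCAM+ and 674, 806, 656 and 629 CPM in EpCAM- replicates 1 to 4. The fractions did not overlap, but the highest EpCAM+ value and the lowest EpCAM- value were close. The log2 fold change of -0.23 (SE 0.09) did not pass (edgeR adjusted p = 0.0711), while it did with the replicate number as a block (-0.22, SE 0.06, edgeR adjusted p = 0.0223), with DESeq2 (adjusted p = 0.0294) and without EpCAM- replicate 4 (edgeR adjusted p = 0.0488). With upper-quartile scaling it was -0.14 (edgeR adjusted p = 0.269).

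Of the histone regulators, *Ezh2* was slightly lower and *Asxl1* equal in mean. *Ezh2* (ENSMUSG00000029687, chromosome 6) had 138, 140, 133 and 139 CPM in EpCAM+ and 149, 159, 161 and 173 CPM in EpCAM- replicates 1 to 4, so all EpCAM+ values lay in a narrow band below the EpCAM- values. The change was -0.22 on the log2 scale (SE 0.07, edgeR adjusted p = 0.0201), a decrease that did not pass with upper-quartile scaling (-0.14, edgeR adjusted p = 0.105), with library totals (-0.14, edgeR adjusted p = 0.101) and without EpCAM+ replicate 3 (-0.21, edgeR adjusted p = 0.0613). *Asxl1* (ENSMUSG00000042548, chromosome 2) had 39.0, 38.7, 42.1 and 36.7 CPM in EpCAM+ and 37.0, 30.6, 46.3 and 43.2 CPM in EpCAM- replicates 1 to 4. The EpCAM- libraries spread to both sides of the EpCAM+ libraries, and the log2 fold change of -0.01 (SE 0.12, edgeR adjusted p = 0.972) became 0.08 with upper-quartile scaling. *Asxl1* overlaps *2500004C02Rik* on the other strand, which had 58 to 112 counts, at most 23.4% of those of *Asxl1*. The library kit is not stated to keep strand, so reads of these overlapping genes may not be separated.

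**Figure D2:**
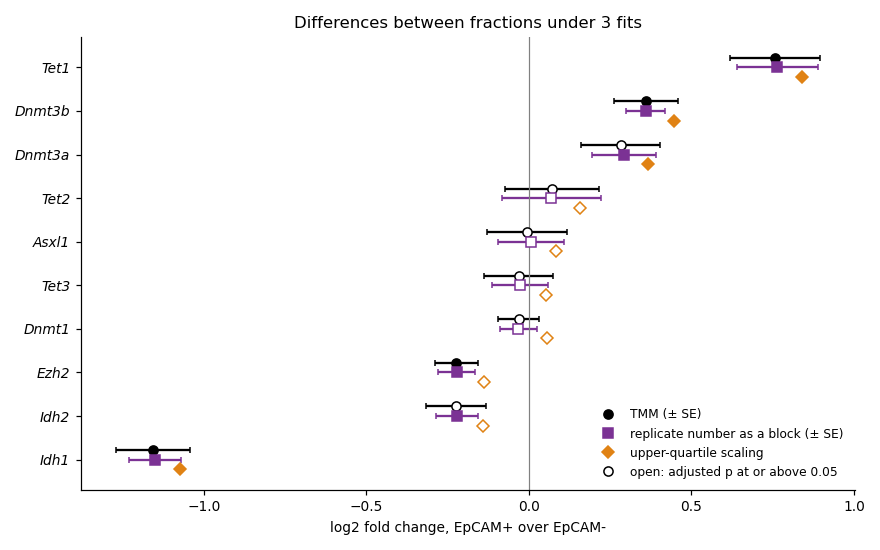
Log2 fold changes of EpCAM+ over EpCAM- for the 10 genes, with TMM scaling (black circles ± SE), with the replicate number as a block (purple squares ± SE) and with upper-quartile scaling (orange diamonds). Filled symbols have an adjusted p under 0.05: *Tet1*, *Dnmt3b* and *Idh1* are filled in all 3 fits, *Ezh2* in 2, *Dnmt3a* with the block and with upper-quartile scaling, and *Idh2* with the block alone.

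Ratios of related genes within a library do not depend on how libraries are scaled, and 7 of them were compared. They are log2 ratios of reads per kilobase of gene length, with 0.5 added to each count, and the length shifts each ratio equally in every library. *Idh1* to *Idh2* was -3.58, -3.88, -4.02 and -3.90 in EpCAM+ and -2.64, -3.12, -2.84 and -3.07 in EpCAM- replicates 1 to 4. The fractions did not overlap, and the mean difference of -0.93 means that *Idh1* was 1.90-fold lower relative to *Idh2* in EpCAM+ libraries. *Ezh2* to *Ezh1*, its paralog in PRC2, was 1.95, 2.28, 2.12 and 2.09 in EpCAM+ and 2.65, 3.04, 2.81 and 2.94 in EpCAM- replicates 1 to 4, a difference of -0.75 without overlap. *Tet1* to *Tet2* was 1.31, 1.84, 1.45 and 1.05 in EpCAM+ and 1.02, 0.47, 0.65 and 0.72 in EpCAM- replicates 1 to 4, a difference of 0.70, and its lowest EpCAM+ value and highest EpCAM- value were close together. Each of these 3 ratios gave p = 0.0286 in an exact two-sided permutation test, the smallest that 4 libraries against 4 allow, and a Benjamini-Hochberg adjusted p of 0.0667 over the 7 ratios, which did not pass 0.05. With only 3 of the 7 ratios at that smallest p, no adjusted p under 0.05 was possible, so the adjusted values cannot decide about these ratios. *Dnmt1* to *Dnmt3a* was lower in the EpCAM+ library of all 4 numbered pairs by a mean of -0.33, with overlapping fractions (exact permutation p = 0.0857, adjusted 0.150). *Dnmt3b* to *Dnmt3a* differed by 0.07 (exact permutation p = 0.83), *Tet3* to *Tet2* by -0.10 (exact permutation p = 0.571) and *Asxl1* to *Asxl2* by -0.01 (exact permutation p = 1.0), all with overlapping fractions and adjusted p-values of 0.967, 0.8 and 1.0 over the 7 ratios (exact permutation).

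**Figure D3:**
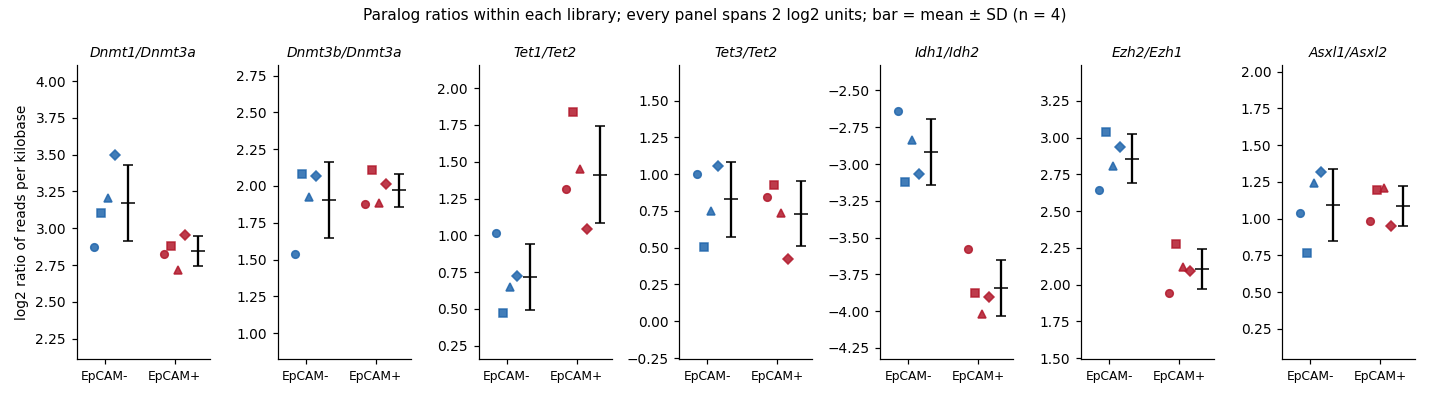
Log2 ratios of reads per kilobase between related genes in each EpCAM- (blue) and EpCAM+ (red) library, with marker shapes for the replicate number (circle 1, square 2, triangle 3, diamond 4) and the mean ± SD of 4 libraries. Every panel spans an equal range of log2 units but starts at its own value. The fractions separate for *Tet1*/*Tet2*, *Idh1*/*Idh2* and *Ezh2*/*Ezh1*, with mean differences of 0.70, -0.93 and -0.75.

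By level per gene length (CPM per kilobase of the length given in the table), *Idh2* was the most abundant of the 10 genes in both fractions, at 228 ± 12.3 in EpCAM+ and 267 ± 30.5 in EpCAM- (SD, n = 4). In EpCAM+ libraries the order went on with *Dnmt1* (31.5 ± 1.60), *Ezh2* (20.6 ± 0.478), *Dnmt3b* (17.3 ± 1.82), *Idh1* (15.9 ± 1.51), *Asxl1* (5.26 ± 0.299), *Dnmt3a* (4.40 ± 0.441), *Tet1* (2.16 ± 0.244), *Tet3* (1.34 ± 0.0911) and *Tet2* (0.813 ± 0.114). The neighbours *Dnmt3b* and *Idh1*, and *Asxl1* and *Dnmt3a*, overlapped in their values. In EpCAM- libraries *Idh1* stood second at 35.5 ± 5.24 and overlapped *Dnmt1* at 32.2 ± 0.789, and *Tet3* (1.37 ± 0.157) stood above *Tet1* (1.28 ± 0.237), also with overlap. The order depends on the gene length used. With the lengths implied by the authors' FPKM, 4 of the 10 genes kept their rank in EpCAM+ and 2 in EpCAM-, with *Idh2* first and *Tet2* last in both fractions under either length. With the implied lengths *Dnmt3a* stood above *Dnmt3b*, at 31.5 against 24.9 in EpCAM+ and 25.9 against 19.4 in EpCAM-, the reverse of the order above.

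The other genes of these pathways were read from 9 lists with 91 genes, of which 86 could be tested and *Dnmt3l*, *Neil2*, *Cxxc4*, *Wt1* and *Asxl3* could not. Of the 86 genes, 20 were higher (23.3%, against 21.8% of all tested genes) and 14 lower (16.3%, against 20.8%), with a median log2 fold change of 0.03. The same shares of all tested genes, 21.8% higher and 20.8% lower, are the background for the counts of each list below. Values for single genes below are log2 fold changes with adjusted p-values over all tested genes. Among partners of the methyltransferases, 2 of 7 tested genes were higher and 2 lower. *Zfp57*, which keeps methylation at imprinted regions, rose by 2.26 on the log2 scale (edgeR adjusted p = 0.00154) but from few reads, with 15 to 31 counts in EpCAM+ and 2 to 6 in EpCAM- libraries. *Trim28*, the corepressor that ZFP57 recruits, was lower (-0.32, edgeR adjusted p = 0.0103), as was *Uhrf1*, which brings DNMT1 to half-methylated DNA (-0.21, adjusted p = 0.0359), and *Uhrf2* was higher (0.27, adjusted p = 0.0253). The calls of *Uhrf1* and *Uhrf2* each held in 3 of the 8 fits without 1 library, and *Uhrf1* did not pass with upper-quartile scaling (edgeR adjusted p = 0.180).

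Among 8 genes of protein families that include readers of methylated CpG sites, *Mbd2* and *Mbd3*, which belong to alternative forms of the NuRD complex, were lower (-0.74, adjusted p = 0.00151, and -0.30, adjusted p = 0.0055). The zinc finger readers *Zbtb4* (1.4, edgeR adjusted p = 0.00442) and *Zbtb38* (0.45, adjusted p = 0.0099) were higher, *Zbtb4* at 38 to 48 counts against 7 to 21. Of 8 tested genes for the repair of oxidized cytosine and for partners of TET proteins, *Cxxc5*, a CXXC zinc finger gene, rose from 64.8 ± 12.2 to 122 ± 10.8 CPM (SD, n = 4; log2 fold change 0.91, edgeR adjusted p = 0.000576). *Ogt*, whose product binds TET proteins, was also higher (0.36, edgeR adjusted p = 0.00382). *Tdg*, the glycosylase that removes some of the oxidized bases that TET enzymes make, was lower (-0.63, edgeR adjusted p = 0.00179), and so was *Gadd45a* (-0.83, adjusted p = 0.00566).

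Of 10 genes for the methyl donor cycle and for 2-oxoglutarate and 2-hydroxyglutarate, 5 were lower and 1 higher, with a median of -0.24. *Idh3a*, a subunit of the NAD-dependent isocitrate dehydrogenase, fell from 348 ± 32.2 to 210 ± 14.4 CPM (SD, n = 4; log2 fold change -0.73, edgeR adjusted p = 0.000264). *Ahcy*, which clears the product that inhibits methyltransferases, was lower by -0.59 (edgeR adjusted p = 0.00136), and *D2hgdh*, which oxidizes D-2-hydroxyglutarate, was higher (0.39, adjusted p = 0.0331). The call of *D2hgdh* held in 3 of the 8 fits without 1 library. With upper-quartile scaling 3 of the list were lower.

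In PRC2, 3 of 10 partner genes were higher and 1 lower. *Ezh1*, the catalytic paralog of *Ezh2*, rose from 24.7 ± 2.16 to 35.6 ± 3.37 CPM (SD, n = 4; log2 fold change 0.53, edgeR adjusted p = 0.00255), opposite to *Ezh2*. *Phf1*, an accessory subunit, rose by 1.27 (edgeR adjusted p = 0.00485), and *Rbbp4*, a histone-binding subunit, fell by 0.46 on the log2 scale (adjusted p = 0.00717). The core subunits *Eed* and *Suz12* were not called. In PRC1, the complex that ubiquitinates histone H2A, 5 of 16 genes were higher (21.8% of all tested genes were), with a median of 0.17. *Phc1* (0.76, edgeR adjusted p = 0.00285) and *Cbx6* (0.68, adjusted p = 0.0034) had the smallest adjusted p-values. No PRC1 gene was called lower by edgeR or DESeq2, and 1 had an unadjusted p under 0.05 in that direction.

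Of 7 tested relatives and partners of *Asxl1*, *Mbd6* (0.65, edgeR adjusted p = 0.00311) and *Mbd5* (0.54, adjusted p = 0.0228), which bind the BAP1 complex, were higher. *Foxk2* (-0.29, edgeR adjusted p = 0.0349) and *Bap1* itself (-0.21, adjusted p = 0.0463) were lower. With upper-quartile scaling neither of these lower calls held, and in the 8 fits without 1 library *Mbd5* and *Foxk2* each passed in 3 and *Bap1* in 1. Of 14 other chromatin regulators linked to leukemia, 3 were higher, among them the acetyltransferase gene *Crebbp* (0.42, edgeR adjusted p = 0.00691) and *Kmt2a* (0.49, adjusted p = 0.0155), and 5 were higher with the replicate number as a block. Of all 13560 tested genes, 21.8% were higher, and 3465 genes were higher with the block. None of the 14 was called lower by edgeR or DESeq2, and 0 had an unadjusted p under 0.05 in that direction. None of 6 cohesin genes was called by edgeR with TMM scaling, and 2 had an unadjusted p under 0.05. Upper-quartile scaling called 2 of them higher (*Smc1a* and *Nipbl*, named after their values were seen). DESeq2 called 1 higher, and the fit with the block called 2 higher and 1 lower.

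**Figure D4:**
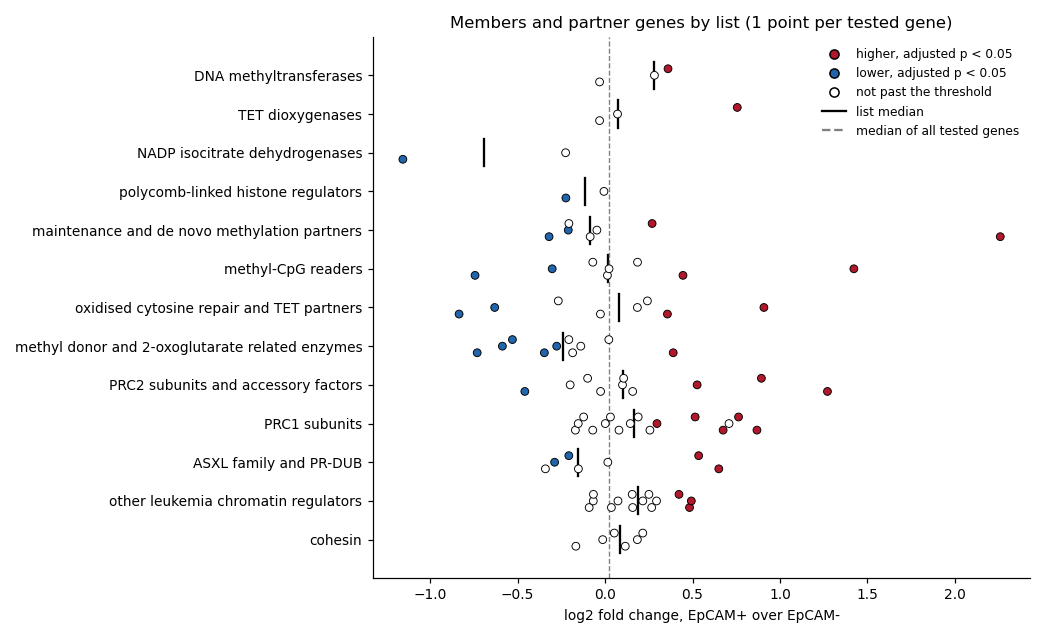
Log2 fold changes of EpCAM+ over EpCAM- for the 10 genes (the 4 upper rows) and the 86 tested partner genes, 1 point per gene, in red or blue where the adjusted p was under 0.05 and the gene was higher or lower. Black bars mark each list's median and the dashed line the median of all tested genes (0.02). The methyl donor and 2-oxoglutarate list lies mostly left of the line (median -0.24) and the PRC1 list mostly right of it (median 0.17).

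*Dnmt1*, *Uhrf1* and *Ezh2* are known to be expressed most in dividing cells, so genes of S phase and proliferation were read beside them. Of 20 such genes, 14 were lower in EpCAM+ libraries, beside 20.8% of all tested genes. The list had a median of -0.38 and a summed level of 5090 to 5700 CPM against 6390 to 7490 CPM. *Ccne1* (-2.23, edgeR adjusted p = 9.33e-05), *Rrm2* (-0.71, edgeR adjusted p = 0.000808) and *Cdc6* (-0.67, edgeR adjusted p = 0.000896) had the smallest adjusted p-values, and *Mki67* (-0.12), *Pcna* (-0.16) and *Top2a* (-0.10) did not pass. The part of proliferation in the values of *Ezh2* and *Uhrf1* was not tested. All 4 calls held without EpCAM+ replicate 1 and without EpCAM+ replicate 4, the libraries with the highest sums of dendritic cell genes. Without replicate 1 the log2 fold changes of *Idh1*, *Tet1*, *Dnmt3b* and *Ezh2* were -1.22, 0.79, 0.41 and -0.23, and without replicate 4 they were -1.15, 0.80, 0.39 and -0.23. Each of these fits kept the other library. Every EpCAM+ library had a higher dendritic cell sum (399 CPM or more) than every EpCAM- library (160 CPM or less). The part of dendritic cell transcripts in these calls was not tested.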

How the data were processed

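Counts of sorted *Zeb1*-/- EpCAM+ and EpCAM- LSK cells (4 libraries each) were taken from the deposited table. Per the submitters' processing notes and the study's methods, the authors amplified RNA with SMART-Seq v4, removed low-quality reads, aligned with STAR 2.6.1d to GRCm38.p6 and counted with featureCounts 1.5.0-p3. The annotation release, strandedness and treatment of reads with several matches are not given in the sources used here. The table holds raw read counts deposited without normalization, which all tests used, and FPKM computed by the authors, used only for implied gene lengths (the table's lengths are longer, median ratio 2.45). Its fold changes and p-values of the authors, for the fractions and for numbered pairs (DESeq2 1.20.0), were not used. The extraction protocol in the labels gives 4 mice per genotype, and no source used here says whether fractions with one number share a mouse. P-values measure the spread between these libraries.

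Genes were filtered with filterByExpr, scaled by TMM and tested with edgeR 4.0.16 (quasi-likelihood, R 4.3.3) over the whole table. Standard errors came from the F statistic. CPM are per 1000000 reads of the scaled library size, and counts of 144 to 10953 per library lay behind the 10 genes. No molecular identifiers are given for the amplified reads. The procedure was tested on simulated data. Alternatives were DESeq2 1.42.0, limma-trend 3.58.1 (log2 CPM, prior count 2), other scalings and filters, the replicate number as a block, a test against a 1.5-fold change and leaving out each library. Same-numbered libraries deviated together from their fraction means (correlation across genes 0.205 to 0.356 in 4 pairs, against -0.216 to 0.0396 in 12 other pairs). The fit with the number as a block was therefore given beside the main fit. The main fit and the permutation tests of the ratios took the libraries as unpaired. Named partner genes were up to 2 higher and 2 lower per list with the smallest adjusted p, and up to 3 S phase genes. For the 2 of the 10 genes with the smallest adjusted p, the 3 protein-coding genes with the largest Pearson correlation were also named. Other genes were named after their values were seen. Sequences came from RefSeq (GRCm38.p6), in which all 10 genes matched, and exons from the GENCODE annotation of GRCm38. The genes and lists were chosen with earlier results of these data known. Figures were drawn with matplotlib 3.10.9.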

Additional observations from a re-analysis of the deposited data

How the results depend on the processing

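Of the 4 calls among the 10 genes, those of *Tet1*, *Dnmt3b* and *Idh1* kept their direction and their side of the threshold under every alternative except the test against a 1.5-fold change, where *Idh1* alone passed. With that test 0 of the genes were higher and 1 lower, 3 partner genes were higher and 0 lower, and 1205 of all tested genes were called in place of 5779, since it asks for a larger change. Scaling set the balance of directions: TMM gave 2961 higher and 2818 lower genes, upper-quartile scaling 3642 and 2083 with a median log2 fold change of 0.11 in place of 0.02, and library totals 3476 and 2066. Under each of these other scalings 1 of the 10 genes was lower (*Idh1*) and 9 partner genes were lower in place of 14. Genes near 0 took the other sign, *Dnmt1* at 0.055 and 0.054, *Tet3* at 0.054 and 0.050 and *Asxl1* at 0.082 and 0.079 with upper quartiles and library totals, and *Asxl1* also at 0.0096 with limma-trend, 0.020 with 10 counts in every library and 0.0074 with the replicate number as a block. The block called 6 of the 10 genes and 6818 of all tested genes, and changed the call of *Dnmt3a* and *Idh2* and of no other of the 10. In it 24 partner genes were higher and 18 lower. For the ratios, 4 of 7 had one direction in all 4 numbered pairs, and an exact sign-flip test of 4 pairs cannot reach 0.05.

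Without 1 library, 2 to 3 of the 10 genes were higher and 1 to 3 lower, the lowest number without EpCAM+ replicate 3 and the highest without EpCAM- replicate 4, and *Dnmt3a* was the third higher gene without EpCAM- replicate 1. Of the partner genes 16 to 22 were then higher and 9 to 17 lower (9 without EpCAM- replicate 3), and 4662 to 6039 of all tested genes were called. *Asxl1* ranged from -0.12 to 0.075, *Tet2* from -0.022 to 0.15 and *Tet3* from -0.096 to 0.039. Between 3 and 4 ratios had fractions that did not overlap. With gene lengths implied by the FPKM, 4 genes kept their rank in EpCAM+ and 2 in EpCAM-. Causes other than those named were not tested. *Tet2*, at 144 to 259 counts, had the fewest reads of the 10 genes and the largest relative spread in EpCAM+ libraries (14.0% of the mean), and its change (0.07) was smaller than its standard error (0.14).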

Other observations

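Over the 8 libraries, the log2 CPM most like that of *Idh1* belonged to *Surf4* (Pearson r = 0.995), *P4hb* (0.994) and *Tmed3* (0.994) among 11734 protein-coding genes compared, all genes of the endoplasmic reticulum or the early secretory pathway and all lower in EpCAM+ libraries, with log2 fold changes of -0.40, -0.71 and -0.76. In total 81 genes (0.690%) had r over 0.95 with *Idh1*. The genes most like *Tet1* were *Paqr7* (0.993), *Rubcn* (0.991) and *Emcn* (0.991), with log2 fold changes of 0.71, 0.43 and 1.89, among 225 genes (1.92%) with r over 0.95. *Emcn* encodes endomucin, a surface protein of stem cells and endothelium. These correlations describe libraries that share a fraction, so genes that separate the fractions can reach high values.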
